A study of Brassica oleracea var. italica with 18 samples.

Results

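BCAT4 and ESP are genes at opposite ends of the life of a glucosinolate, the sulfur compounds that give cabbages and broccoli their sharp taste. Glucosinolates are stored in intact cells, and when tissue is damaged the enzyme myrosinase splits them into unstable products that turn into isothiocyanates, nitriles or epithionitriles. In Arabidopsis, BCAT4 (branched-chain aminotransferase 4) removes the amino group of methionine, the step that opens the chain elongation leading to the aliphatic glucosinolates. ESP (epithiospecifier protein) acts after myrosinase, and steers the breakdown away from isothiocyanates and towards nitriles and epithionitriles. In broccoli, sulforaphane is the isothiocyanate that lessens when ESP acts.

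The genes were measured with 7 of the 43603 probes of a Brassica oligonucleotide array, 4 for BCAT4 and 3 for ESP, which were chosen by probe name. The names come from the study's list of probes higher in the heat-tolerant line, where the 7 probes are assigned to the Arabidopsis loci of BCAT4 and ESP. Other probes of these genes, if the array holds any, were not analysed here. The array was designed on Brassica napus sequences and carried RNA of Brassica oleracea, so that related gene copies which resemble a probe could not be told apart. The BCAT4 probes A_46_P166449 and A_46_P202084 share a target sequence, whereas the other 5 probes each have a target of their own.

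RNA came from the shoot meristem of 2 broccoli lines, the heat-tolerant inbred line B295 (HT) and the heat-sensitive BR1 op (HS), which the methods describe as failing to form heads in the warmth. All plants had grown at 22 °C under long days before they were moved to 15, 22 or 27 °C. The 6 groups are called by line and temperature (HT15, HS15 and so on), with 3 arrays each and 18 in all, and the methods mention 3 individual plants without making clear whether each array held 1 plant or a pool of them. Each line stands for its genotype by 1 line only, so a difference between the lines could be a difference between any 2 broccoli lines.

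Between 63.9% and 69.8% of the probes were well above background on each array, and arrays of a group correlated with r from 0.986 to 0.993. All 7 BCAT4 and ESP probes were well above background on all 18 arrays, and none of their spots was saturated. At 22 and 27 °C, all arrays with the same replicate number sat on 1 slide (slides 1 to 3), but the 15 °C arrays sat on slides 4 and 5. Per the file headers, slides 1 and 2 were scanned on a first day, and slides 3, 4 and 5 on a second. For a change from 15 °C, temperature and slide therefore cannot be told apart, while scan day can be entered as a block through slide 3, and the 2 lines, or 22 and 27 °C, can be compared inside a slide. Of 23 marker loci listed to check the tissue, probes for 3 were named: CUC1 of organ boundaries, LFY of floral meristems and LHCB of green tissue. All 3 were well above background on every array, and LHCB read between 11.8 and 13.5 on the log2 scale. RNA of this marker of green tissue was thus detected in the samples, but how much green tissue they held was not measured.

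Values are log2 intensities after quantile normalization, on which 1 unit is a doubling, and they are compared between samples of a probe and not between probes. The first BCAT4 probe, A_46_P166449, read 7.17, 7.67 and 8.23 in replicates 1, 2 and 3 of HS15, 7.85, 7.91 and 6.77 in HS22, and 9.91, 9.98 and 9.24 in HS27. In HT it read 7.38, 8.01 and 8.19 at 15 °C, 9.77, 9.76 and 8.19 at 22 °C, and 10.65, 10.92 and 11.61 at 27 °C. HS15, HT15 and HS22 thus overlapped at the bottom, HT22 and HS27 overlapped in the middle, and the 3 arrays of HT27 lay above all others.

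The probe of the same target, A_46_P202084, read 5.44, 5.88 and 6.50 in HS15, 6.03, 6.03 and 4.67 in HS22, and 8.14, 8.20 and 7.50 in HS27. Its HT values were 5.69, 6.38 and 6.47 at 15 °C, 8.23, 8.11 and 6.66 at 22 °C, and 8.98, 9.26 and 9.95 at 27 °C. The order of the groups was the one of A_46_P166449, with HT27 again apart at the top.

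Probe A_46_P343385, on a different BCAT4 target, read 7.57, 8.06 and 8.50 in HS15, 8.12, 8.29 and 6.66 in HS22, and 10.33, 10.35 and 9.46 in HS27. In HT the values were 7.58, 8.49 and 8.53 at 15 °C, 10.24, 10.20 and 8.47 at 22 °C, and 11.16, 11.36 and 11.86 at 27 °C. Here too HT27 stood above every other array, and the 22 °C array of replicate 3 was the lowest of its group in both lines.

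The last BCAT4 probe, A_46_P190774, read 4.89, 5.47 and 5.87 in HS15, 5.33, 5.25 and 4.41 in HS22, and 7.36, 7.28 and 6.77 in HS27. In HT it read 5.19, 7.93 and 6.19 at 15 °C, 7.31, 7.27 and 6.05 at 22 °C, and 8.20, 8.39 and 9.32 at 27 °C. Replicate 2 of HT15, at 7.93, exceeded all 3 arrays of HT22 on this probe, while the other 3 BCAT4 probes put that array within 0.29 of its group mean.

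**Figure D1:**
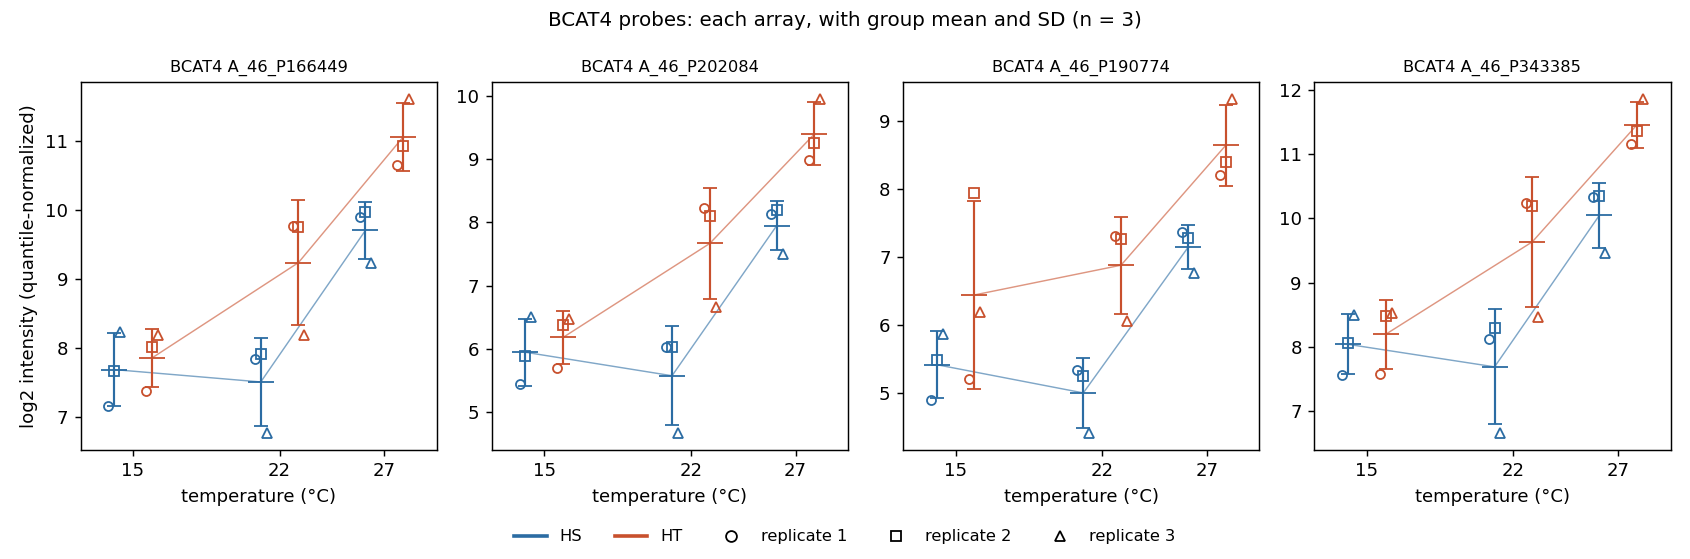
Log2 intensity of the 4 BCAT4 probes (y axis) at 15, 22 and 27 °C (x axis) in HS (blue) and HT (red), with each array as a symbol for its replicate number and bars for the group mean and SD of 3 arrays. The HS arrays of 15 and 22 °C overlap and those of 27 °C stand higher, HT27 was above all other arrays, and replicate 3 at 22 °C was low in both lines.

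For ESP, probe A_46_P171254 read 5.36, 5.48 and 5.57 in HS15, 6.24, 5.70 and 6.66 in HS22, and 5.80, 5.76 and 6.38 in HS27. In HT the readings were 6.34, 6.55 and 6.55 at 15 °C, 7.33, 7.41 and 7.48 at 22 °C, and 7.56, 7.60 and 7.70 at 27 °C. HT22 and HT27 lay above every HS array, and HT15 overlapped with HS22 and HS27.

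Probe A_46_P239239, whose target is annotated as an ESP of broccoli itself, read 11.19, 11.40 and 11.67 in HS15, 12.76, 12.01 and 12.90 in HS22, and 12.16, 12.57 and 13.02 in HS27. Its HT values were 12.19, 12.72 and 12.60 at 15 °C, 13.60, 13.89 and 13.86 at 22 °C, and 14.04, 14.15 and 14.45 at 27 °C. The picture was that of A_46_P171254: HT22 and HT27 exceeded all arrays of HS, and HT15 overlapped with the warmer HS groups.

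Probe A_46_P116364, on the remaining ESP target, read 5.59, 6.50 and 6.00 in HS15, 7.71, 7.37 and 5.91 in HS22, and 7.73, 9.64 and 7.14 in HS27. In HT it read 7.33, 8.27 and 8.51 at 15 °C, 8.70, 8.80 and 8.54 at 22 °C, and 9.59, 10.54 and 10.56 at 27 °C. HS27 was spread widely, with an SD of 1.31, because its replicate 2 stood at 9.64, just above the lowest array of HT27.

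**Figure D2:**
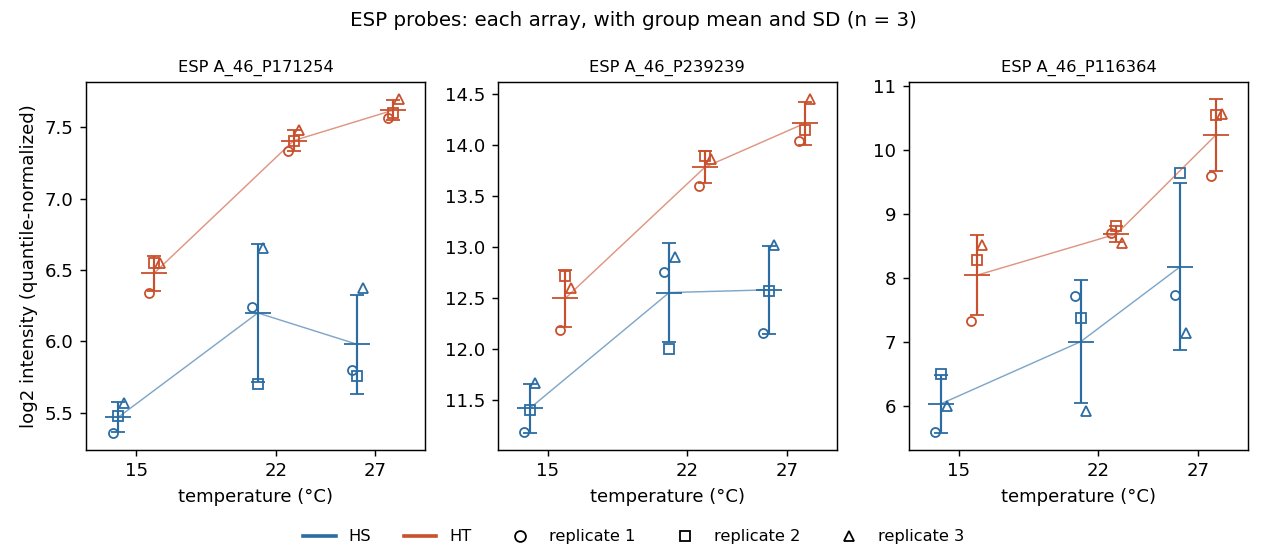
Log2 intensity of the 3 ESP probes (y axis) by temperature (x axis) in HS (blue) and HT (red), each array shown by its replicate number with the group mean and SD of 3 arrays. HT was above HS at each temperature, with the exception of the HS27 replicate 2 value of 9.64 on A_46_P116364, and the HS arrays at 22 and 27 °C were more scattered than those of HT on all 3 probes.

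Probes of BCAT4 moved together. Over the 18 arrays, Pearson's r between pairs of the 4 BCAT4 probes ran from 0.915 to 0.997, and for the deviations from the group means, which leave out line and temperature, from 0.757 to 0.994. The low ends came from A_46_P190774, whose pairs had deviation correlations of 0.757 to 0.770. The 3 other probes, of 2 targets, had deviation correlations of 0.981 and above. All 4 probes shared the low arrays of replicate 3 at 22 °C, where A_46_P190774 deviated by -0.83 in HT22 and -0.59 in HS22. These correlations describe probes read on the same arrays and carry no test.

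The 3 ESP probes fell into a close pair and a probe apart. A_46_P171254 and A_46_P239239 correlated with r = 0.965 over the arrays and 0.878 for the deviations. A_46_P116364 correlated with them at r = 0.723 and 0.801, but its deviations went with theirs at -0.46 and -0.05. Its deviations were nearer to those of the BCAT4 probes, with r from 0.493 to 0.638. In HS22 replicate 3, for example, A_46_P116364 and the 4 BCAT4 probes were the lowest of their group, while A_46_P171254 and A_46_P239239 were the highest of theirs.

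**Figure D3:**
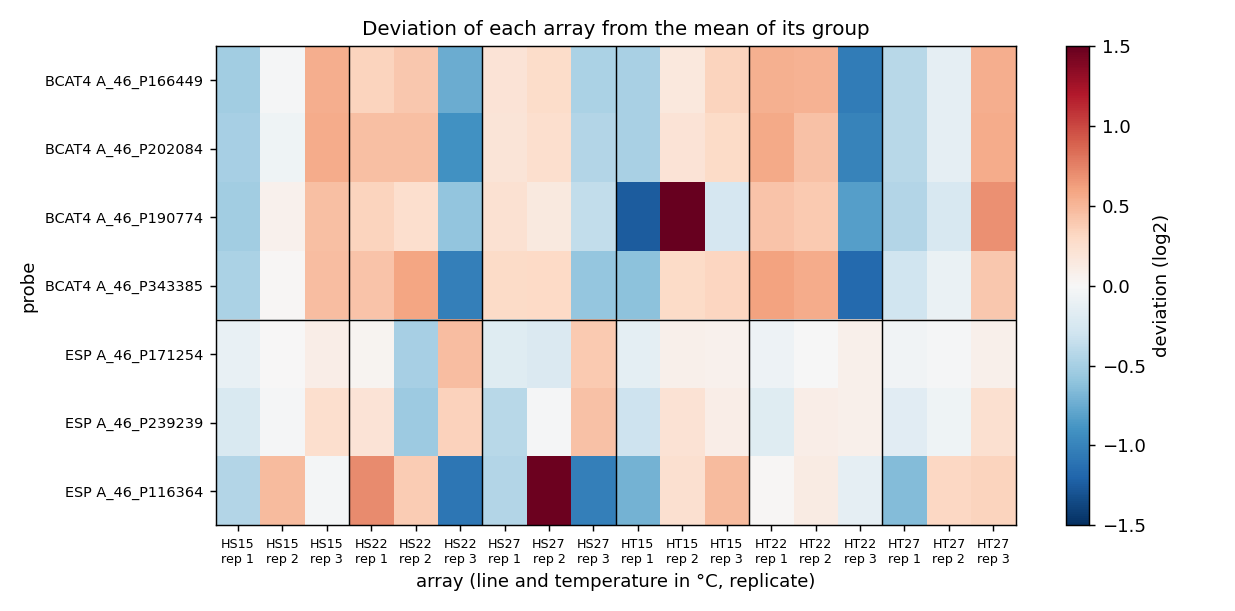
Deviation of each array from its group mean (colour, log2 units, red above and blue below) for the 7 probes (rows) on the 18 arrays (columns). The BCAT4 rows share their pattern except for A_46_P190774 in HT15, and A_46_P116364 departs from the other ESP rows in HS22 and HS27.

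The first comparison asked whether the 2 lines differed at a given temperature. ESP was higher in HT than in HS at all 3 temperatures on 2 or 3 of its 3 probes, and BCAT4 was higher at 22 °C on all 4 probes. A probe was called at an adjusted p under 0.05 in limma, adjusted by Benjamini-Hochberg over all 43603 probes, with no minimum fold. Since the list the probes were named from holds probes found higher in HT on these same arrays, the direction and the counts of this comparison are a description and no independent evidence. Where the arrays of a group are said to exceed those of another, the share of all probes that did so was not counted.

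At 15 °C all 3 ESP probes were called higher in HT, against 11.4% of all probes called higher there. A_46_P171254 was higher by 1.01 ± 0.20 (log2 difference ± SE, n = 3 and 3; adjusted p = 0.00202) and A_46_P239239 by 1.08 ± 0.25 (adjusted p = 0.00645), both about a doubling. A_46_P116364 differed most, by 2.01 ± 0.60, which is 4.02-fold (adjusted p = 0.0273). For each of these probes the 3 HT arrays exceeded the 3 HS arrays, and HT was higher in the same 3 pairs on a shared slide.

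None of the 4 BCAT4 probes was called at 15 °C, nor had any an unadjusted p under 0.05 in limma or in the methods' t-test. Differences HT minus HS were 0.17 on A_46_P166449, 0.24 on A_46_P202084 and 0.16 on A_46_P343385, with SEs of 0.46 to 0.52, and turned negative on all 3 without HS15 replicate 1. On A_46_P190774 it was 1.03 ± 0.58 (adjusted p = 0.27), where the replicate pairs on shared slides differed by 0.30, 2.46 and 0.32. The second of these pairs holds the HT15 array that stood apart.

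At 22 °C all 4 BCAT4 probes were called higher in HT, where 11% of all probes were. The differences were 1.73 ± 0.46 on A_46_P166449 (adjusted p = 0.0155), 1.88 ± 0.58 on A_46_P190774 (adjusted p = 0.0352), 1.94 ± 0.52 on A_46_P343385 (adjusted p = 0.0163) and 2.09 ± 0.47 on A_46_P202084 (adjusted p = 0.00556), or 3.31- to 4.26-fold. On each of the 4 probes HT exceeded HS in the 3 pairs on a shared slide, by 1.42 to 2.20. These are the same 3 pairs of arrays for all 4 probes. A fit on the 6 arrays of 22 °C alone kept none of the 4 BCAT4 calls, with adjusted p from 0.05002 to 0.142, and with slide as a fixed block A_46_P190774 was not called (adjusted p = 0.0561). The call of A_46_P190774 was lost in 7 of 13 other settings and in 5 of 18 fits without 1 array, and its difference was 0.79 with the normexp background correction.

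Low readings on replicate 3 lowered both lines at 22 °C and so touched the difference less than the levels. On A_46_P166449, replicate 3 deviated from its group mean by -1.05 in HT22 and by -0.74 in HS22. HS22 replicate 3 was also the lowest of its group for CUC1, at 6.45 against 7.88 and 8.74, and for LFY, at 7.57 against 9.08 and 9.37. In HT22 replicate 3 both of these markers lay within the range of the other replicates, at 8.10 for CUC1 and 8.28 for LFY. LHCB read 13.20 and 12.24 on the same 2 arrays, against 11.85 to 13.09 on the other arrays of 22 °C. Whether the makeup of the samples had a part in the BCAT4 values was not tested, and in whole-tissue RNA fewer cells with a transcript and less transcript per cell cannot be told apart.

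ESP at 22 °C was called higher in HT on 2 of 3 probes, A_46_P171254 by 1.21 ± 0.20 (adjusted p = 5e-04) and A_46_P239239 by 1.23 ± 0.25 (adjusted p = 0.00272). The difference on A_46_P116364 was 1.68 ± 0.60 (adjusted p = 0.0649), with HT above HS in all 9 pairings of arrays, and it was called with slide as a fixed block (adjusted p = 0.0487) and with scan day as a block (adjusted p = 0.0455).

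At 27 °C the 3 ESP probes were called higher in HT, and 10.6% of all probes were. A_46_P171254 was 3.12-fold higher (1.64 ± 0.20, adjusted p = 2.95e-05), A_46_P239239 3.10-fold (1.63 ± 0.25, adjusted p = 0.00027) and A_46_P116364 4.17-fold (2.06 ± 0.60, adjusted p = 0.0251). On A_46_P116364 the call was lost without any of 4 single arrays of 27 °C, and without slide 3 the difference was 1.38 (adjusted p = 0.18).

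Among the BCAT4 probes at 27 °C, A_46_P202084 was called at 1.45 ± 0.47 (adjusted p = 0.0462), and the others differed by 1.35 to 1.50 with adjusted p from 0.0556 to 0.0958. The call of A_46_P202084 was lost with the replicate number as a block (adjusted p = 0.0551), in 5 of 13 other settings in all, and in 12 of 18 fits without 1 array. The 3 arrays of HT27 exceeded the 3 of HS27 on each of the 4 probes. Within slides, the difference was 0.74 to 1.11 on slides 1 and 2 and 2.37 to 2.56 on slide 3, where HT27 was high and HS27 low. With slide as a fixed block, or scan day as a block, 3 of the 4 probes were called, and without slide 3 none was, at a median difference of 0.94.

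**Figure D4:**
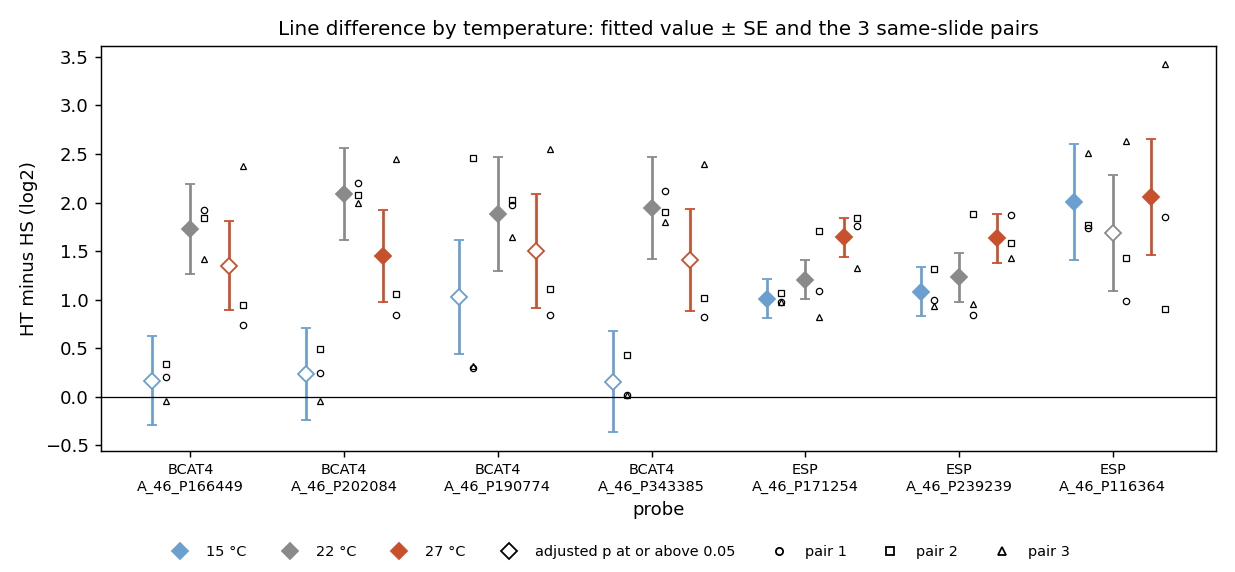
Log2 difference HT minus HS (y axis) at 15 °C (blue), 22 °C (grey) and 27 °C (red) for each probe (x axis), with the fitted value ± SE as a diamond, open where the adjusted p was 0.05 or more, and the 3 pairs on a shared slide as small symbols. The fitted ESP values all lay at 1.01 or above, whereas BCAT4 lay near 0 at 15 °C on 3 probes and at 1.73 to 2.09 at 22 °C.

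The second comparison followed temperature. In the mean of the 2 lines, BCAT4 was called higher at 27 than at 22 °C on all 4 probes, and ESP at 22 than at 15 °C on 2 of 3. Both were tested on the mean of the 2 lines, in which the difference between them cancels. From 22 to 27 °C, all 4 BCAT4 probes rose, by 1.95 ± 0.41 on A_46_P190774 (adjusted p = 0.0112), 2.01 ± 0.33 on A_46_P166449 (adjusted p = 0.00214), 2.05 ± 0.34 on A_46_P202084 (adjusted p = 0.00222) and 2.09 ± 0.37 on A_46_P343385 (adjusted p = 0.00379). That is 3.87- to 4.25-fold, in a comparison where 3.69% of all probes were called higher. All 4 probes were still called with slide as a fixed block and in each fit that left out 1 array. Leaving out slide 3 took the median rise from 2.03 to 1.54 and the call from A_46_P190774 (adjusted p = 0.127).

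ESP showed no call over that step. The rise was 0.23 ± 0.18 on A_46_P239239 (adjusted p = 0.543) and 1.36 ± 0.42 on A_46_P116364 (adjusted p = 0.072), and A_46_P171254 had an adjusted p of 0.994 with a fold of 1.00. A_46_P116364, the 1 ESP probe with an unadjusted p under 0.05, was called in 7 of 11 other settings, among them slide as a fixed block (adjusted p = 0.0494), with adjusted p down to 0.0335.

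From 15 to 22 °C the calls in the mean of the lines fell on ESP and not on BCAT4. A_46_P171254 rose by 0.83 ± 0.14 (adjusted p = 0.00114) and A_46_P239239 by 1.21 ± 0.18 (adjusted p = 0.000398) over the mean of the lines, while 8.3% of all probes were called higher. A_46_P116364 had a difference of 0.81 ± 0.42 (adjusted p = 0.239). No BCAT4 probe was called or had an unadjusted p under 0.05 in limma, with differences of 0.01 to 0.60 and adjusted p from 0.258 to 0.992. That mean joins BCAT4 differences of 0.44 to 1.49 in HT and -0.42 to -0.18 in HS. The ESP differences were 0.64 to 1.28 in HT and 0.73 to 1.13 in HS. Whether the 2 genes differed in their step was not tested. Without the arrays of slide 3, however, 3 BCAT4 probes were called higher at 22 than at 15 °C in the mean of the lines. The differences were 1.05 on A_46_P166449, 1.03 on A_46_P202084 and 1.09 on A_46_P343385, with adjusted p of 0.00826, 0.00888 and 0.00808. Of the markers, CUC1 also rose over this step, by 1.48 (adjusted p = 0.011), while LFY differed by 0.23 (adjusted p = 0.66) and LHCB by -0.49 (adjusted p = 0.21). Their part in the ESP values was not tested.

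Over the whole range from 15 to 27 °C all 7 probes rose in the mean of the lines, against 13.6% of all probes. BCAT4 rose by 1.96 to 2.63, or 3.90- to 6.20-fold, and ESP by 0.83 on A_46_P171254, 1.44 on A_46_P239239 and 2.17 on A_46_P116364. Adjusted p ran from 4.55e-05 to 0.00265 over the 7 probes, and all 7 remained called without any single array, with scan day as a block, and with slide as a random block, which assumes that slides vary at random.

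Within HT, 27 °C against 15 °C gave the largest BCAT4 values of any comparison made. A_46_P166449 was 9.19-fold higher at 27 °C (3.20 ± 0.46, adjusted p = 0.000341), A_46_P202084 9.30-fold (3.22 ± 0.47, adjusted p = 0.000406) and A_46_P343385 9.57-fold (3.26 ± 0.52, adjusted p = 0.000737). On A_46_P190774 the log2 rise was 2.20 ± 0.58 (adjusted p = 0.018), and 2.95 without HT15 replicate 2. That call was lost without HT15 replicate 1 (1.58, adjusted p = 0.0851), HT15 replicate 3 (2.08, adjusted p = 0.0584) or HT27 replicate 3 (1.86, adjusted p = 0.0779), without slide 3 (1.86, adjusted p = 0.0761), with scan day as a block (1.93, adjusted p = 0.0592), on the 6 arrays alone (adjusted p = 0.128) and in the methods' t-test. All 3 ESP probes rose too, by 1.14 ± 0.20 on A_46_P171254, 1.71 ± 0.25 on A_46_P239239 and 2.19 ± 0.60 on A_46_P116364 (adjusted p = 0.00136, 0.000401 and 0.0207). With scan day as a block A_46_P116364 was not called (adjusted p = 0.0763). In this comparison 8.87% of all probes were called higher.

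The same step in HS was called on 3 of 4 BCAT4 probes and 2 of 3 ESP probes, and on 7.95% of all probes. BCAT4 rose by 2.02 ± 0.46 on A_46_P166449, 2.00 ± 0.47 on A_46_P202084 and 2.00 ± 0.52 on A_46_P343385 (adjusted p = 0.00902, 0.0111 and 0.0186), and differed by 1.73 ± 0.58 on A_46_P190774 (adjusted p = 0.0622). ESP rose by 1.16 ± 0.25 on A_46_P239239 (adjusted p = 0.00657) and 2.14 ± 0.60 on A_46_P116364 (adjusted p = 0.0263). On A_46_P171254 the difference was 0.51 ± 0.20 (adjusted p = 0.108), although the 3 arrays of HS27 exceeded the 3 of HS15. With scan day as a block A_46_P171254 was called (0.76, adjusted p = 0.00728), while A_46_P343385 (adjusted p = 0.0599) and A_46_P116364 (adjusted p = 0.0902) were not.

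Split by step, no BCAT4 probe was called in HT in either step. From 15 to 22 °C the differences were 1.38 ± 0.46 on A_46_P166449, 1.49 ± 0.47 on A_46_P202084 and 1.44 ± 0.52 on A_46_P343385 (adjusted p = 0.0777, 0.0661 and 0.107), and 0.44 ± 0.58 on A_46_P190774. Of the 4 probes, 3 had an unadjusted p under 0.05 in limma, ranked 5085 to 6583 among the 43603 probes, and 0 in the methods' t-test. Without HT22 replicate 3 these 3 were called, at 1.90 to 2.02. ESP was called on A_46_P171254 (0.93 ± 0.20, adjusted p = 0.0091) and A_46_P239239 (1.28 ± 0.25, adjusted p = 0.0053), where 5.06% of all probes were called higher.

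From 22 to 27 °C in HT the BCAT4 differences were 1.73 to 1.82, with adjusted p from 0.0666 to 0.176, and the ESP differences 0.21 to 1.55. None of the 7 probes was called, and 1.09% of all probes were called higher. Of the 7, 4 were called with normexp, 3 with slide as a random block, 3 with scan day as a block and 2 with slide as a fixed block. An unadjusted p under 0.05 was found for 4 BCAT4 probes and 1 ESP probe in limma, and for 4 and 3 in the methods' t-test, of which 0 remained after adjustment. Those found in limma ranked 1033 to 3520 by p among the 43603 probes. HT27 exceeded HT22 in every pairing of arrays on all 7 probes, but the share of all probes that did so was not counted. The BCAT4 rise was 0.75 to 1.17 on slides 1 and 2 and 3.27 to 3.41 on slide 3, and without slide 3 its median was 1.02.

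In HS the steps parted. BCAT4 gave no call from 15 to 22 °C, with differences of -0.42 to -0.18, 0 probes called and 0 with an unadjusted p under 0.05 in limma or the methods' t-test. From 22 to 27 °C it was called on 3 of 4 probes where 1.26% of all probes were called higher, by 2.19 ± 0.46 on A_46_P166449, 2.37 ± 0.47 on A_46_P202084 and 2.35 ± 0.52 on A_46_P343385 (adjusted p = 0.0249, 0.019 and 0.0326). On A_46_P190774 the difference was 2.14 ± 0.58 (adjusted p = 0.0849). On each of the 4 probes HS27 exceeded HS22 in the same 3 pairs on a shared slide, by 2.03 to 2.84. The calls were not held firmly: 0 of 4 were called without HS22 replicate 3, without HS27 replicate 1 or without HS27 replicate 2, when the differences were 1.83 to 2.28.

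ESP in HS had its calls in the first step. A_46_P171254 rose by 0.73 ± 0.20 from 15 to 22 °C (adjusted p = 0.0468) and A_46_P239239 by 1.13 ± 0.25 (adjusted p = 0.017), with 3.03% of all probes called higher. The first of these calls was lost in most fits that left out 1 array, and the second without either of 2 single arrays of HS15 or of 2 of HS22. From 22 to 27 °C the differences were -0.22 ± 0.20 on A_46_P171254, 0.03 ± 0.25 on A_46_P239239 and 1.17 ± 0.60 on A_46_P116364, and 0 of the 3 had an unadjusted p under 0.05 in limma or the methods' t-test.

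**Figure D5:**
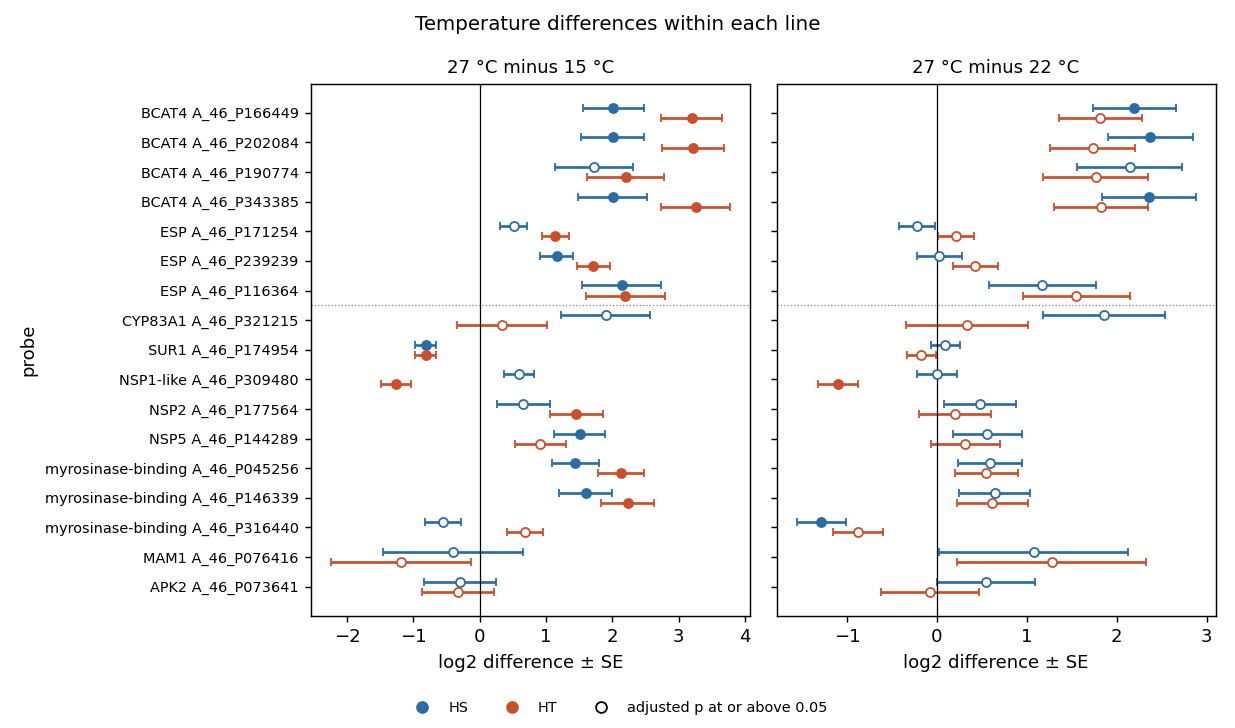
Log2 difference ± SE (x axis) of 27 °C minus 15 °C (left) and 27 °C minus 22 °C (right) in HS (blue) and HT (red) for the 7 probes and 10 other glucosinolate probes (y axis), with filled points where the adjusted p was under 0.05. BCAT4 lay to the right in both panels, ESP A_46_P171254 and A_46_P239239 had filled points only at left, and NSP1-like A_46_P309480 had opposite signs in the 2 lines at left.

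Whether the lines differed in how they answered temperature was tested as an interaction. The rise of BCAT4 from 15 to 22 °C was larger in HT than in HS by 1.56 ± 0.65 on A_46_P166449, 1.86 ± 0.67 on A_46_P202084, 1.79 ± 0.74 on A_46_P343385 and 0.85 ± 0.83 on A_46_P190774. None of these was called, at adjusted p of 0.683 to 0.999, nor was any ESP probe, and 0.0344% of all probes were called in either direction. Without adjustment, 3 of the 4 BCAT4 probes had a p under 0.05 in limma and 0 ESP probes. By p, these 3 ranked 995 to 1628 among the 43603 probes. The interactions of 27 °C against 15 °C and against 22 °C were called for 0 of the 7 probes and for 0.378% and 0.00459% of all probes. An unadjusted p under 0.05 was found for 1 ESP probe in the first, A_46_P171254, which ranked 2846 by p, and for 0 probes in the second. The interactions use the difference between the lines, by which these probes had been listed. Their counts and ranks are therefore no independent evidence.

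BCAT4 and ESP were also set side by side as gene means, each probe centred on its own mean. For their correlation, the 2 BCAT4 probes of a shared target were averaged first. Over the 18 arrays the 2 genes correlated with r = 0.797, with 0.918 over the 9 HT arrays and 0.545 over the 9 HS arrays. In HS, single BCAT4 probes correlated with ESP probe A_46_P116364 at 0.709 to 0.771. With A_46_P239239 they did so at 0.187 to 0.283, and with A_46_P171254 at -0.172 to -0.069. These values share line, temperature and array, and describe the arrays with no test. Among 29600 other probes, the 5 most like BCAT4 had r from 0.924 to 0.961 over 18 arrays, led by A_46_P236074, and none of them is named in the tables used here. The 5 most like ESP had r from 0.953 to 0.958, and 2 of them carry a locus: A_46_P348770, of an Arabidopsis splicing factor (r = 0.954), and A_46_P061556, of the MADS-box gene SHP1 (r = 0.953).

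The rest of the pathway was followed with 10 probes, named in the study's tables, which were themselves drawn from differences on these arrays. MAM1, which elongates the methionine chain after BCAT4, read 10.26, 10.16 and 10.14 in HT15 and 6.77, 6.47 and 8.60 in HS15 on A_46_P076416, without overlap and with a difference of 2.91 (adjusted p = 0.068). It read 9.08, 8.94 and 5.15 in HT22 and 9.52, 10.18 and 7.30 in HT27, low on slide 3 in both. No comparison of MAM1 was called. CYP83A1, which acts on the aldoximes made from elongated methionine, was called higher in HT at 15 °C by 2.12 (A_46_P321215, adjusted p = 0.038) and at 22 °C by 2.08 (adjusted p = 0.044). At 27 °C it differed by 0.56 (adjusted p = 0.69), where HS27 was spread over 8.59, 5.48 and 5.90. In HS15 and HS22 it was well above background on 2 of 3 arrays. APK2, a kinase that makes the sulfate donor of the last core step, was called higher in HT at 22 °C by 2.10 (A_46_P073641, adjusted p = 0.013).

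SUR1, the C-S lyase of the core pathway, went the other way from BCAT4 with warmth. On A_46_P174954 it fell by 0.82 from 15 to 27 °C in each line (adjusted p = 0.0029 in HT, 0.0036 in HS), and by 0.78 from 15 to 22 °C in the mean of the lines (adjusted p = 0.00037). It differed by 0.10 between the lines at 27 °C (adjusted p = 0.77).

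Among genes that act on glucosinolate breakdown beside ESP, the nitrile-specifier protein NSP2 was called higher at 27 than at 15 °C in the mean of the lines, by 1.06 (A_46_P177564, adjusted p = 0.011), and NSP5 by 1.21 (A_46_P144289, adjusted p = 0.0039). The myrosinase-binding probes A_46_P045256 and A_46_P146339, of 1 locus, rose by 1.79 and 1.91 (adjusted p = 0.00012 and 0.00017). The myrosinase-binding probe, A_46_P316440, rose by 1.15 from 15 to 22 °C and fell by 1.08 from 22 to 27 °C (adjusted p = 0.0011 and 0.0041). In all, 4 of the 10 probes were called higher and 1 lower at 27 than at 15 °C in the mean of the lines, where 13.6% of all probes were called higher and 6391 of 43603 lower. Between the lines, 2, 4 and 1 of the 10 were called higher in HT at 15, 22 and 27 °C, against 11.4%, 11% and 10.6% of all probes, and 0 lower.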

How the data were processed

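The 18 scanner files, 1 array per sample, hold deposited intensities from Agilent Feature Extraction 10.7.1.1 (1 colour, Cy3), per the file headers. The processed signal, already background-subtracted, was used with control spots left out, spots of a probe averaged, log2 taken and arrays quantile-normalized. The methods name RMA on a median baseline, of which quantile normalization is the between-array step. The authors also deposited log2 values, which were found to be a shift to each array's 75th percentile with centring of each probe on its median (r of 0.999 or above on every array), and these served as an alternative. Files were read and fitted in R 4.3.3 with limma 3.58.1 (lmFit, contrasts.fit, eBayes), with 1 mean per group, 12 residual degrees of freedom and 15 comparisons. P-values were adjusted by Benjamini-Hochberg over 43603 probes within each comparison, and a probe was called under 0.05. All members were measured on every array. Figures were drawn with matplotlib 3.10.9. The fit and the t-test were tested on simulated data.

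Groups come from the sample titles. The labels number replicates, which the methods call biological, but the sources do not make clear whether a sample pooled plants. The p-values therefore measure only the spread between these samples, which may hold technical variation as well. The number of arrays limits the precision. Replicate numbers were checked for pairing. Deviations of same-numbered HT and HS arrays correlated at 0.129 to 0.191 at 15 °C, 0.029 to 0.193 at 22 °C and 0.043 to 0.133 at 27 °C. Not every pair thus exceeded 0.1. Arrays of unlike number correlated lower at each temperature, at -0.133 to -0.00077, -0.188 to 0.026 and -0.115 to 0.006. Since deviations cancel within a group, positive same-numbered pairs force lower values on the others, which add no further evidence of pairing. Same-numbered HT and HS arrays of a temperature also shared a slide. The main fit took no account of this pairing, which entered through the replicate block. Slides and scan days were taken from the file headers, and the consensus correlation within slides was 0.202. The methods' t-test took 2 groups at a time with equal variances.

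The 7 probes, the other glucosinolate probes and the markers were chosen with earlier results of these data known. Named were the 7 probes, the 10 other glucosinolate probes and the 5 probes most like each gene. Gene names come from the study's supplementary lists, of which the copies used here are incomplete, and their values were not used. No sequence of the probes was used here. Alternatives were the scaling, the background correction (normexp, offset 50), a filter on dim probes, the replicate and slide blocks, the arrays fitted, the test, the threshold and leaving out each array. Leaving out slide 3 and scan day as a block were added after the data had been seen.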

Additional observations from a re-analysis of the deposited data

Results flagged for a closer look

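NSP1-like, read by A_46_P309480 and annotated as a myrosinase-binding protein-like gene, was the 1 glucosinolate probe whose response to temperature differed between the lines by a test of the difference itself. From 15 to 27 °C it fell by 1.26 in HT (adjusted p = 0.0014) and differed by 0.59 in HS (adjusted p = 0.091), an interaction of -1.85 in limma (adjusted p = 0.023). This interaction was called for 0.378% of all probes in either direction. The probe was named from the study's list of probes that differed between the lines on these same arrays. The interaction uses that difference, so it is no independent evidence. The line difference HT minus HS was 1.73 at 15 °C, 0.97 at 22 °C and -0.13 at 27 °C. HT read 8.46, 8.42 and 7.98 at 15 °C and 7.22, 6.80 and 7.05 at 27 °C, without overlap. Groups of 3 arrays are too small for a search for single outlying samples.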

How the results depend on the processing

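The number of the 7 probes called was compared under each setting with limma at an adjusted p under 0.05. The share of all probes called under each setting is not given here. A looser threshold or an unadjusted test cannot lower that share, so a higher count there is no result about these genes. For HT against HS it was 3 at 15 °C and became 1 with the methods' t-test after adjustment. At 22 °C it was 6, and became 2 on the arrays compared alone and 0 with the adjusted t-test. At 27 °C it was 4, and became 7 with normexp, 7 at an adjusted p under 0.1, 2 with the adjusted t-test and 2 with slide 3 left out. For 22 against 15 °C in HT it was 2, and became 4 with normexp, 4 among probes well above background, 4 at an adjusted p under 0.1, 1 with the adjusted t-test and 5 with slide 3 left out. For 27 against 22 °C in HT it was 0, and became 4 with normexp, 1 among probes well above background, 3 with slide as a random and 2 as a fixed block, 3 with scan day as a block, 7 with the unadjusted t-test and 2 at an adjusted p under 0.1. In HS, 22 against 15 °C went from 2 to 1 with the 75th percentile, normexp, the authors' values or the unadjusted t-test, and to 0 on the arrays compared alone, with the adjusted t-test or with slide 3 left out. In HS, 27 against 15 °C went from 5 to 0 with the adjusted t-test, and 27 against 22 °C from 3 to 0 with it or on the arrays compared alone. In the mean of the lines, 22 against 15 °C went from 2 to 5 with slide 3 left out. Leaving out 1 array gave 2 to 3, 3 to 7 and 2 to 6 calls for the lines at 15, 22 and 27 °C, 2 to 5, 5 to 7 and 0 to 0 for 22 against 15, 27 against 15 and 27 against 22 °C in HT, and 0 to 2, 2 to 6 and 0 to 4 in HS. In the mean of the lines these were 2 to 2, 7 to 7 and 4 to 5, and the interactions gave 0 throughout.

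Signs turned only on differences that were not called. Without 1 array, HT minus HS at 15 °C ran from -0.09 to 0.44 on A_46_P166449, -0.01 to 0.52 on A_46_P202084 and -0.08 to 0.46 on A_46_P343385. For 22 against 15 °C in HS the ranges were -0.44 to 0.19, -0.62 to 0.08 and -0.65 to 0.16 on these probes, with 0.19, 0.08 and 0.16 when slide 3 was left out. On A_46_P190774, 22 against 15 °C ran from -0.18 to 1.19 in HT and -0.30 to 0.39 in the mean of the lines, where scan day as a block gave -0.27 on it and -0.05 on A_46_P343385. For 27 against 22 °C, A_46_P171254 ran from -0.47 to 0.01 in HS and -0.13 to 0.11 in the mean of the lines, where it was 0.01 with the 75th percentile, the authors' values or slide 3 left out and 0.05 with normexp. A_46_P239239 ran from -0.25 to 0.24 in HS and was -0.02 with slide 3 left out. The causes were not tested.

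With the replicate number as a block, the count over the 7 probes was 7 at 22 °C for HT against HS, with A_46_P116364 added (adjusted p = 0.0407). At 27 °C it was 3, since A_46_P202084 was lost (adjusted p = 0.0551). Calls also appeared on A_46_P171254 for 27 against 15 °C in HS (adjusted p = 0.0441) and A_46_P116364 for 27 against 22 °C in the mean of the lines (adjusted p = 0.042), and no other call changed.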
